A study of Homo sapiens with 12 samples.

Results

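The response of HCT116 cells to Nutlin-3a was compared between cells with and without a knockdown of RFX7, gene by gene, as the difference of the Nutlin-3a effects under the 2 siRNAs. HCT116 is a human colorectal carcinoma line, and Nutlin-3a is a small molecule that blocks MDM2 and thereby stabilises p53. Transfected cells carried either the control siRNA, siControl, or siRFX7, which targets RFX7, and were kept for 24 h in 10 µM Nutlin-3a or in DMSO, its solvent. PolyA RNA was sequenced in 3 libraries of each of the 4 combinations of siRNA and treatment. All groups were transfected cells of this line. The labels do not state how many siRNAs against RFX7 were used or whether replicates were separate cultures, so p-values measure the spread between these libraries, which may be technical.

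The genes described are the protein-coding genes whose normalized counts averaged 100 or more over the libraries: 10863 of the 23195 genes (46.8%) that both Nutlin-3a tables list, all of them also in both siRFX7 tables. Another 3652 of the 14515 protein-coding genes fell below the minimum. At that limit, GPR37 with a mean of 100.1 normalized counts was kept and had an interaction of 0.67, and HNF4G with 99.94 was left out and had 0.67. The deposited values are group statistics, so no value per library can be shown. Levels are group means in normalized counts, recovered from the mean over all libraries and the fold changes, and are read within a gene only, since they are not per length. Summed levels were 25915992 to 27407526 normalized counts in the 4 groups. Of the 7 epithelial markers EPCAM, KRT8, KRT18, KRT19, CDH1, CDX2 and VIL1, 6 averaged from 697.8 normalized counts for CDX2 to 80340 for KRT8, while VIL1 averaged 8 and fell below the minimum. Of 16 blood, stromal and endothelial markers, 9 were listed and only COL1A1 exceeded the minimum, at 441, with the next at 19.4.

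As background, p53 is a transcription factor that MDM2, itself a p53 target, keeps at low levels. Its target CDKN1A encodes the CDK inhibitor p21, through which the DREAM complex comes to repress cell cycle genes, many of them by way of a promoter motif called the cell cycle homology region. RFX7 is a winged-helix transcription factor that binds X-box DNA and has been described as activating growth-restraining genes downstream of p53. ATF4 is the transcription factor of the integrated stress response and drives genes of amino acid synthesis, amino acid uptake and tRNA charging.

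The interaction was the Nutlin-3a effect in siRFX7 minus that in siControl, on the log2 scale. It equals the siRFX7 effect in Nutlin-3a minus that in DMSO, so a difference in response can be read as a change of the siRFX7 effect between treatments. A gene was called at an adjusted p below 0.05 in a z test, adjusted by Benjamini-Hochberg over 23195 genes. Of the 10863 genes, 1238 were called (11.4%, against 6.2% of all 23195 genes), with 703 above 0 (6.47%) and 535 below 0 (4.92%). At an unadjusted p under 0.05 the number was 2779. The responses were otherwise much alike: across genes, which are not independent replicates and share libraries within each arm, Pearson's r between the Nutlin-3a effects was 0.953. The authors' deposited tables called 7325 of the genes in siControl (67.4%) and 7085 in siRFX7 (65.2%), 5964 of them in the same direction in both and 50 in opposite directions. Called interactions had a median absolute size of 0.44, and 114 reached 1 or more, of which 90 were below 0 and 24 above. The median standard error of an interaction was 0.118. Values given below with a standard error (SE) and an adjusted p are interactions by this z test, and levels are given from DMSO to Nutlin-3a.

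The split of calls by sign depended on scaling. Scaled to equal summed levels, 538 were above and 638 below 0, and with the median interaction of the genes (0.033) subtracted, 521 and 644. Under a t distribution with 8 degrees of freedom, which does not take the standard errors of 12 libraries as known, 257 genes were called, 123 above and 134 below 0. Of 209 named genes, 112 were not called then, and this is stated in the paragraph that gives an interaction with its standard error.

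**Figure D1:**
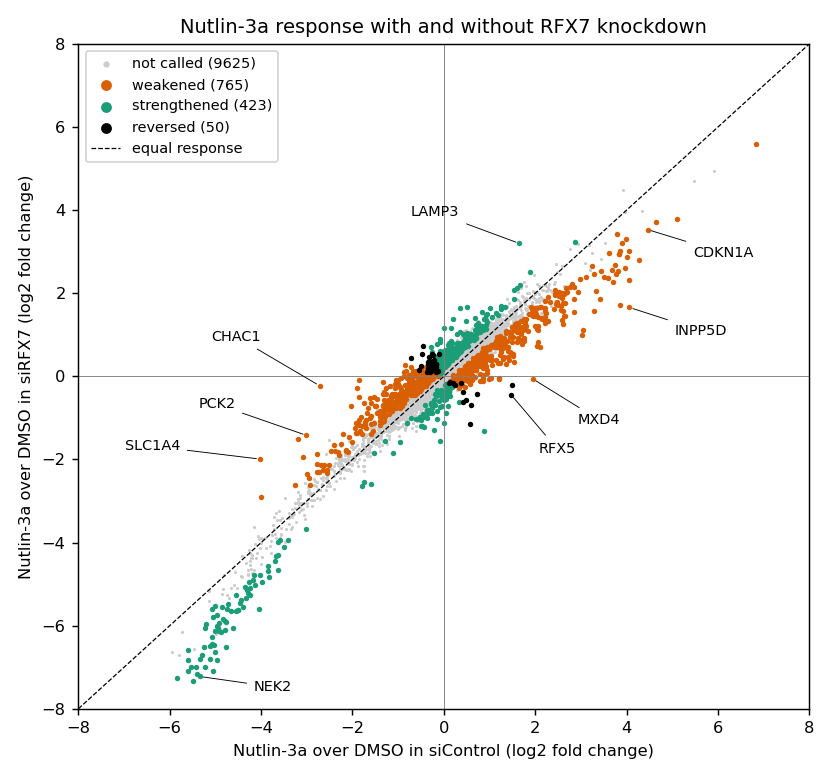
Each point is a protein-coding gene with a mean of at least 100 normalized counts. The x axis is the log2 fold change of Nutlin-3a over DMSO in siControl and the y axis that in siRFX7, both from the authors' deposited tables. Colours give the 765 weakened, 423 strengthened and 50 reversed genes, and the dashed line marks equal responses. CDKN1A and INPP5D lie under the line among the rises, CHAC1 and SLC1A4 above it among the falls, and NEK2 under it at the end of the deepest falls.

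Called genes were sorted by what became of the response. A response was reversed where both of the authors' deposited Nutlin-3a tables called the gene in opposite directions, and otherwise weakened or strengthened where the absolute effect was smaller or larger in siRFX7 than in siControl. By this rule 765 responses were weakened (61.8%), 423 strengthened (34.2%) and 50 reversed (4.04%). Of the weakened responses, 367 were rises and 398 falls. Of the strengthened ones, 268 were rises and 155 falls. Rise and fall here are the sign of the mean of the 2 Nutlin-3a effects, so a strengthened response need not be present in siControl. Of the strengthened rises 132, and of the strengthened falls 47, were called by the authors' deposited Nutlin-3a tables in siRFX7 only. With the direction set by the siControl response alone, 865 responses were weakened and 323 strengthened.

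The treatment in which siRFX7 changed the level was split evenly over all called genes and unevenly between classes. By the authors' deposited siRFX7 tables, the siRFX7 effect was called in DMSO only for 398 genes, in Nutlin-3a only for 383, in both with the same sign for 322, in both with opposite signs for 112 and in neither for 23. For comparison, these tables called 4619 of all 10863 genes in DMSO (42.5%) and 4422 in Nutlin-3a (40.7%). The larger absolute siRFX7 effect was in DMSO for 629 genes (50.8%) and in Nutlin-3a for 609 (49.2%). Among weakened rises the larger effect was in DMSO for 223 of 367, and the median siRFX7 effect in the authors' deposited tables was 0.35 with DMSO and -0.15 with Nutlin-3a. Among weakened falls it was in DMSO for 240 of 398, with medians of -0.27 for DMSO and 0.14 for Nutlin-3a by the authors' deposited tables. Among strengthened rises it was in Nutlin-3a for 156 of 268. Among strengthened falls it was in Nutlin-3a for 132 of 155, with medians of -0.20 for DMSO and -0.88 for Nutlin-3a by the authors' deposited tables.

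**Figure D2:**
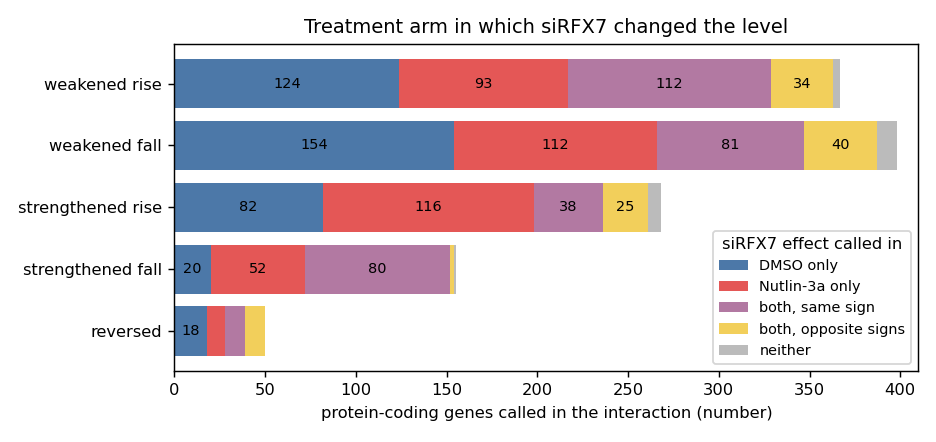
Bars count the genes called in the interaction (x axis) in each response class (y axis), divided by the treatment in which the authors' deposited siRFX7 tables called an effect. Weakened rises and falls hold 124 and 154 genes changed by siRFX7 in DMSO only, whereas strengthened falls hold 20, beside 52 changed in Nutlin-3a only and 80 changed in both with the same sign.

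RFX7 (chromosome 15 from 56087280 to 56243266, minus strand, GRCh38) is the siRNA target and was examined as a check of the labels. Its level went from 944 to 1332 normalized counts in siControl and from 185 to 302 in siRFX7, lower with siRFX7 in both treatments. Its interaction was 0.21 (SE 0.13, adjusted p 0.462) and was not called.

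Many p53-activated genes rose less in siRFX7, and the siRNA groups differed mainly in DMSO, where the siRFX7 level was higher. Of 57 such genes, 31 were called below 0 and 5 above (against 4.92% and 6.47% of all genes). The median interaction was -0.39, against 0.03 over all genes. Median Nutlin-3a effects in the authors' deposited tables were 1.81 in siControl and 1.47 in siRFX7, and median siRFX7 effects were 0.49 in DMSO and 0.15 in Nutlin-3a. The class was weakened for 30 and strengthened for 6. Of the 31 genes below 0, the authors' deposited tables called 27 higher with siRFX7 in DMSO and none lower, and the siRFX7 effect was larger in DMSO for 27.

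MDM2 and CDKN1A show this pattern. MDM2 (chromosome 12 from 68808176 to 68850686, plus strand, GRCh38) went from 4705 to 74982 normalized counts in siControl and from 6591 to 64906 in siRFX7, with an interaction of -0.69 (SE 0.089, adjusted p 1.90e-12). CDKN1A (chromosome 6 from 36676460 to 36687339, plus strand, GRCh38) went from 5493 to 121149 normalized counts in siControl and from 13389 to 154897 in siRFX7, with an interaction of -0.93 (SE 0.13, adjusted p 7.17e-10). CDKN1A was thus higher with siRFX7 in both treatments, and MDM2 was higher with siRFX7 in DMSO and lower in Nutlin-3a. TP53I3, a quinone oxidoreductase, went from 400.2 to 13730.3 normalized counts in siControl and from 1194 to 16422 in siRFX7, an interaction of -1.32 (SE 0.17, adjusted p 1.34e-12). FDXR, the mitochondrial ferredoxin reductase, went from 2420.1 to 15012 normalized counts in siControl and from 4766 to 13104 in siRFX7, with -1.17 (SE 0.15, adjusted p 3.61e-12). SPATA18, a mitochondrial quality control gene, went from 15 to 159.9 normalized counts in siControl and from 77.2 to 280.3 in siRFX7, with -1.55 (SE 0.29, adjusted p 9.69e-06). For these 3 genes the fold difference between siRNAs was wider in DMSO than in Nutlin-3a. TNFRSF10C, a decoy receptor of the death ligand TRAIL, had -1.28 (SE 0.18, adjusted p 3.51e-10), and the calcium channel gene ORAI3 had -0.95 (SE 0.23, adjusted p 0.00113). GENCODE exons of other genes cover 39.3% and 52.9% of the exon bases of TNFRSF10C and ORAI3, so reads of these genes could be split with a neighbour. The calls of SPATA18 and ORAI3 were lost with 8 degrees of freedom.

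The 5 p53-activated genes called above 0 were SESN2, E2F7, APAF1, TNFAIP8 and TNFRSF10A. SESN2, which encodes a sestrin that restrains mTORC1 and is also an ATF4 target, had 0.56 (SE 0.11, adjusted p 2.22e-05) and went from 1263 to 2422 normalized counts in siControl and from 911 to 2579.9 in siRFX7. E2F7, a repressor of E2F targets, had 0.50 (SE 0.14, adjusted p 0.00632) and went from 1024 to 1092 normalized counts in siControl and from 898 to 1358 in siRFX7. APAF1, the apoptosome scaffold, had 0.41 (SE 0.14, adjusted p 0.0432). None of the 5 was called with 8 degrees of freedom, and APAF1 and TNFAIP8 were not called when groups were scaled to equal summed levels.

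The genes with interactions farthest below 0 lay partly outside that list. INPP5D (chromosome 2 from 233059967 to 233207903, plus strand, GRCh38), a phosphoinositide phosphatase gene, had the interaction farthest below 0, -2.40 (SE 0.21, adjusted p 2.02e-28). Its level went from 35.7 to 597 normalized counts in siControl and from 220 to 695 in siRFX7. The Nutlin-3a levels were close and the DMSO levels far apart. PTCHD4, which encodes a Patched-domain protein, had -2.05 (SE 0.27, adjusted p 2.74e-12) and went from 25.4 to 208 normalized counts in siControl and from 121 to 239 in siRFX7. FAM198B had -1.94 (SE 0.25, adjusted p 1.50e-12) and went from 26 to 215 normalized counts in siControl and from 118 to 255 in siRFX7. For INPP5D, PTCHD4 and FAM198B the siRFX7 effect was called in DMSO only in the authors' deposited tables. KRTAP2-3, a keratin-associated protein gene with near-identical copies among which reads could be split, had -2.14 (SE 0.21, adjusted p 6.92e-21). BEST1, an anion channel gene, was not a weakened rise. It went from 87.5 to 159.8 normalized counts in siControl and from 174 to 70.1 in siRFX7, with -2.18 (SE 0.66, adjusted p 0.0211), a standard error well above the median, and its call was lost with 8 degrees of freedom.

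Apoptosis genes were divided. Of 22 BCL2 family and death receptor genes, 7 were called below 0 and 4 above (50%, against 11.4% of all genes). The median interaction was 0.00. Among those below 0, BBC3, the BH3-only protein PUMA, went from 659.5 to 2945 normalized counts in siControl and from 998 to 2580 in siRFX7, with -0.79 (SE 0.13, adjusted p 9.80e-08). BAX, the pore former of the mitochondrial outer membrane, went from 1889 to 5389.9 normalized counts in siControl and from 2804 to 5417 in siRFX7, with -0.56 (SE 0.12, adjusted p 3.40e-04). FAS, a death receptor, went from 434 to 2337 normalized counts in siControl and from 798 to 3393 in siRFX7, with -0.34 (SE 0.096, adjusted p 0.00984). All 3 were higher with siRFX7 in DMSO. BCL2, an inhibitor of cell death, fell from 253 to 78.4 normalized counts in siControl and from 194 to 94.6 in siRFX7, with 0.65 (SE 0.22, adjusted p 0.0462). The pore former BAK1 rose from 554 to 926 normalized counts in siControl and from 551 to 1251 in siRFX7, with 0.44 (SE 0.10, adjusted p 6.45e-04), and TNFRSF1A, the TNF receptor, had 0.48 (SE 0.071, adjusted p 1.41e-09). BAK1 thus rose more in siRFX7, where BAX and BBC3 rose less. With 8 degrees of freedom the calls of BAX, FAS, BCL2 and BAK1 were lost.

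Epidermal differentiation genes, several of which p53 family members activate, followed the p53-activated genes only in part. Of 30, 12 were called below 0 and 2 above (against 4.92% and 6.47% of all genes). The authors' deposited tables called 10 of the 12 higher with siRFX7 in DMSO. The median interaction of the list was -0.14, against -0.39 for p53-activated genes. Over the whole list, 15 genes were called higher and 10 lower with siRFX7 in DMSO, against 42 and 3 p53-activated genes. TRIM29 went from 10.7 to 167 normalized counts in siControl and from 75.3 to 460 in siRFX7, with -1.36 (SE 0.32, adjusted p 0.00101). COL17A1, a hemidesmosome collagen, went from 46.4 to 771 normalized counts in siControl and from 187 to 1525 in siRFX7, with -1.03 (SE 0.21, adjusted p 5.99e-05). KRT15, a basal keratin, had -0.84 (SE 0.12, adjusted p 3.14e-10). CSTA, the protease inhibitor cystatin A, ran the other way and is described with the reversed genes. With 8 degrees of freedom 1 gene of the list was called above 0 and 1 below, and the calls of TRIM29 and COL17A1 were lost. The epithelial marker KRT19 went from 27288 to 88124 normalized counts in siControl and from 34434 to 69959.9 in siRFX7, with -0.67 (SE 0.14, adjusted p 2.10e-04), a call lost with 8 degrees of freedom. A wider list of 12 epithelial markers had 9 genes in the tables and 7 above the minimum. Of these 7, KRT19 was called, a share of 14.3% that is near the 11.4% of all genes.

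Of 17 nucleotide excision and bypass repair genes, DDB2 and XPC were called, both below 0, a share of 11.8% that is near the 11.4% of all genes, and the call of XPC was lost with 8 degrees of freedom. DDB2, a damage sensor of nucleotide excision repair, went from 988 to 1708 normalized counts in siControl and from 1928 to 2014 in siRFX7, with -0.73 (SE 0.085, adjusted p 2.95e-15), and its Nutlin-3a effect in siRFX7 was 0.06 in the authors' deposited table. Of 13 histone genes, 3 were called below 0, HIST1H2AC, HIST1H2BD and HIST1H2BK, and all 3 were changed by siRFX7 in DMSO only in the authors' deposited tables. HIST1H2AC went from 81.8 to 336 normalized counts in siControl and from 231 to 385 in siRFX7, with -1.30 (SE 0.17, adjusted p 6.79e-12). The linker histone gene H1F0 was called above 0, with 0.63 (SE 0.066, adjusted p 4.70e-19). The 4 called histone genes were 30.8% of their list. Of 15 genes of the sestrins and other brakes on mTOR, 4 were called below 0 and 2 above (40%). SESN1 went from 476 to 2706 normalized counts in siControl and from 1196 to 3944 in siRFX7, with -0.79 (SE 0.086, adjusted p 3.02e-17). DEPTOR, an mTOR inhibitor, went from 83.1 to 281 normalized counts in siControl and from 106 to 192 in siRFX7, with -0.90 (SE 0.20, adjusted p 2.29e-04). SESN3, described with the reversed genes, and DDIT4L were also below 0, at -1.73 and -0.53, and SESN2 and PRKAB1 were above, at 0.56 and 0.39. With 8 degrees of freedom SESN1 and SESN3 were still called and the other 4 were not.

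**Figure D3:**
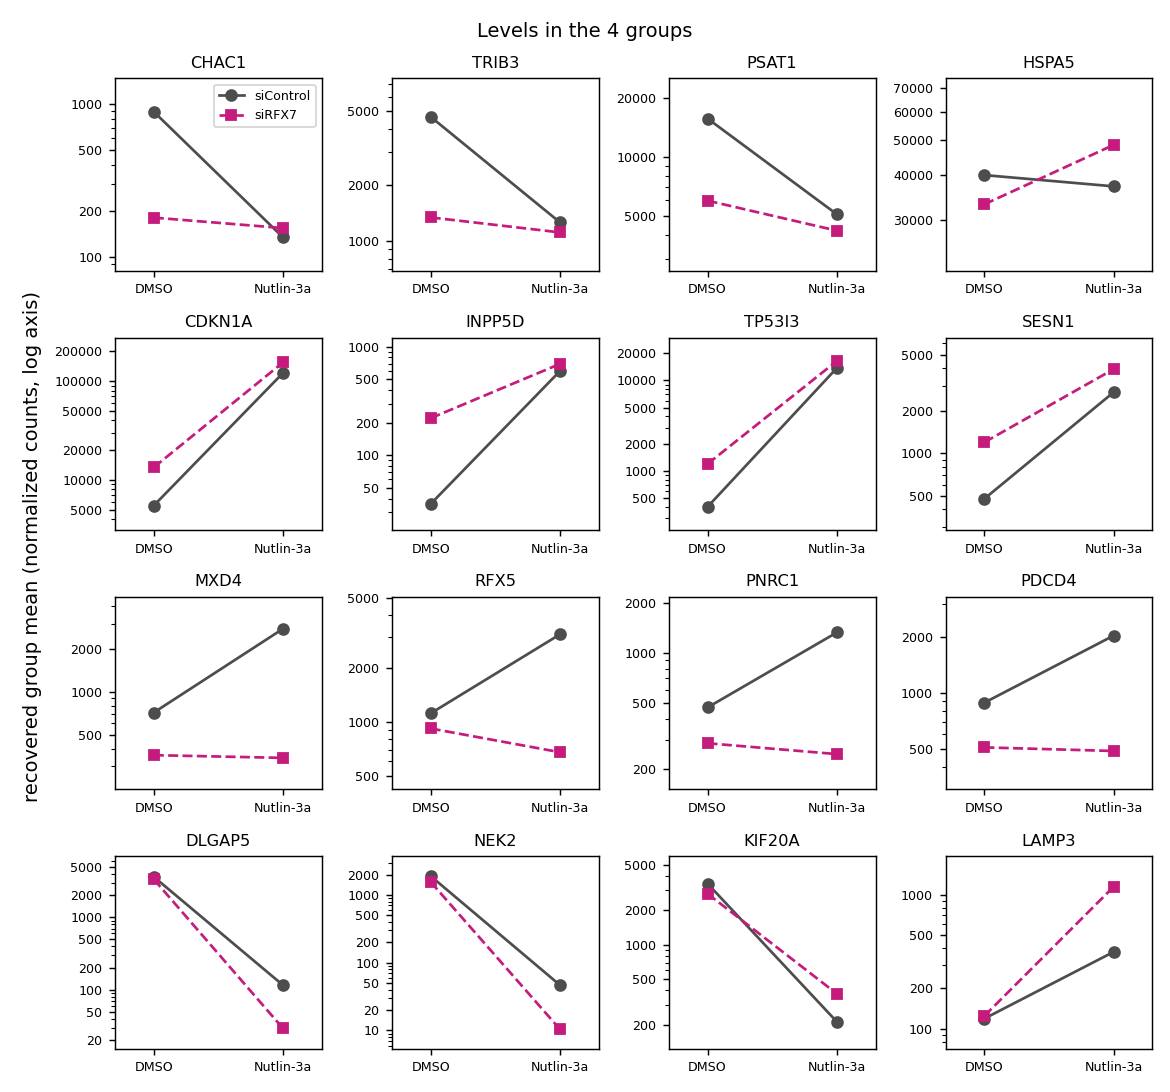
Recovered group means (y axis, normalized counts, log axis) in DMSO and Nutlin-3a (x axis) for 16 genes, with siControl as solid lines and circles and siRFX7 as dashed lines and squares. There are no error bars because only group statistics were used. CHAC1, TRIB3, CDKN1A and INPP5D differ between siRNAs mainly in DMSO, MXD4, RFX5, DLGAP5, NEK2 and LAMP3 mainly in Nutlin-3a, and the HSPA5 and KIF20A lines cross.

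Many RFX7 targets rose less in siRFX7 too, but here the siRNA groups differed mainly in Nutlin-3a, where the siRFX7 level was lower. The list may rest in part on these libraries, so its direction is not independent evidence. Of 29 genes, 19 were called below 0 and none above (against 4.92% and 6.47% of all genes). The median interaction was -0.55. Median Nutlin-3a effects in the authors' deposited tables were 1.0 in siControl and 0.39 in siRFX7, and median siRFX7 effects were -0.22 in DMSO and -0.55 in Nutlin-3a. The siRFX7 effect was larger in Nutlin-3a for 17 of the 19. The class was weakened for 14, strengthened for 3 and reversed for 2.

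MXD4, a MAX partner that opposes MYC, had the strongest weakening, with an interaction of -2.01 (SE 0.13, adjusted p 9.38e-53). Its level went from 715 to 2766 normalized counts in siControl and from 359.8 to 344 in siRFX7. The rise in siControl had no counterpart in siRFX7, where the Nutlin-3a effect in the authors' deposited table was -0.06. PDCD4, an inhibitor of translation, went from 885 to 2032 normalized counts in siControl and from 509 to 487 in siRFX7, with -1.26 (SE 0.11, adjusted p 8.30e-28). CCNG2, an atypical cyclin linked to cell cycle exit, went from 498 to 995 normalized counts in siControl and from 323 to 311 in siRFX7, with -1.05 (SE 0.13, adjusted p 2.98e-13). SLC43A2, an amino acid transporter, went from 653 to 1744 normalized counts in siControl and from 420.4 to 550 in siRFX7, with -1.03 (SE 0.11, adjusted p 1.11e-16). Exons of other genes cover 29.5% of the exon bases of PDCD4. RFX5 and PNRC1 were reversed. RFX5 (chromosome 1 from 151340640 to 151347357, minus strand, GRCh38), another RFX factor, which controls MHC class II genes, went from 1118 to 3104 normalized counts in siControl and from 919 to 676 in siRFX7, with -1.92 (SE 0.11, adjusted p 1.26e-60). PNRC1, a nuclear receptor cofactor, went from 468 to 1321 normalized counts in siControl and from 285 to 245 in siRFX7, with -1.71 (SE 0.12, adjusted p 2.05e-44). Both ended below their DMSO level in siRFX7. TSPYL2, of the nucleosome assembly protein family, went from 673 to 635 normalized counts in siControl and from 320 to 108 in siRFX7, with -1.48 (SE 0.14, adjusted p 8.16e-25), with the siRFX7 level lower in both treatments and more so in Nutlin-3a.

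TP53INP1 and TOB1 combined the patterns of p53 and RFX7 targets, and BTG2 shared only the higher DMSO level seen in p53 targets. TP53INP1, an autophagy and stress gene, went from 528 to 6757 normalized counts in siControl and from 813 to 4792 in siRFX7, with -1.12 (SE 0.12, adjusted p 5.12e-19). BTG2, an antiproliferative gene, went from 1093 to 10656 normalized counts in siControl and from 1766 to 9772 in siRFX7, with -0.82 (SE 0.091, adjusted p 1.11e-16). TOB1, of the same family, went from 2094 to 4373 normalized counts in siControl and from 2479 to 3257 in siRFX7, with -0.67 (SE 0.065, adjusted p 6.00e-22). In all 3 the siRFX7 level was higher in DMSO, and in Nutlin-3a it was lower for TP53INP1 and TOB1 and not called for BTG2, by the authors' deposited tables. Of the 5 BTG and TOB genes, BTG2 and TOB1 were called (40%, against 11.4% of all genes). CCND1, which encodes cyclin D1, went from 19533 to 59509 normalized counts in siControl and from 17738 to 31488 in siRFX7, with -0.78 (SE 0.059, adjusted p 1.40e-36). MYC, whose product drives growth, went from 8692 to 15919 normalized counts in siControl and from 6419.6 to 8964 in siRFX7, with -0.39 (SE 0.10, adjusted p 0.00388), a call lost with 8 degrees of freedom.

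The letters GTTGCCA or GTTGCTA, part of the X-box that RFX factors bind, were searched on both strands in the 300 bases from 250 before to 50 after the start site in RefSeq (GRCh38.p14). These windows were matched for 8907 of the 10863 genes. The motif was in 11.1% of RFX7 target windows (3 of 27), 7.75% of weakened rises, 5.86% of the matched genes and 6.87% of all 27305 windows. Strengthened rises held it in 8.17% (17 of 208), and genes called above and below 0 in 6.63% and 6.65%. Its share thus did not set weakened rises apart from strengthened ones. MXD4 and TSPYL1 are shown because both are RFX7 targets with weakened rises that hold the motif (capitals). TSPYL1 went from 3004 to 6083 normalized counts in siControl and from 2298 to 3045 in siRFX7, with an interaction of -0.61 (SE 0.072, adjusted p 7.73e-15), and was named for its window. The windows are chr4:2262060-2262359 for MXD4 on the minus strand and chr6:116279881-116280180 for TSPYL1 on the minus strand.
MXD4: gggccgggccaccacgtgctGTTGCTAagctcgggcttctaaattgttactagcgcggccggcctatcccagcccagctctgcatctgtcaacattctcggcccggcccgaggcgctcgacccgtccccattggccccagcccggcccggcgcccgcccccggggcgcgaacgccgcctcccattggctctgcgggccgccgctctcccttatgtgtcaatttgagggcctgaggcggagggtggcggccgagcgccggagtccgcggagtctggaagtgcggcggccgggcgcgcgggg
TSPYL1: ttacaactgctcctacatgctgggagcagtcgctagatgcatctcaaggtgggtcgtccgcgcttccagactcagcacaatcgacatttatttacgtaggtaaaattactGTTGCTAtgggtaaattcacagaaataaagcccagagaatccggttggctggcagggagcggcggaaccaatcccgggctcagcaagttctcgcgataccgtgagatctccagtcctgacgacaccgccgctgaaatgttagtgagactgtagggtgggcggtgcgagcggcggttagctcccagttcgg

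Many amino acid and stress genes fell less with Nutlin-3a in siRFX7, and their DMSO level was lower with siRFX7. Of 27 ATF4 and integrated stress response genes, 17 were called above 0 and none below (against 6.47% and 4.92% of all genes). The median interaction was 0.56. Median Nutlin-3a effects in the authors' deposited tables were -0.49 in siControl and -0.08 in siRFX7, and median siRFX7 effects were -0.65 in DMSO and -0.10 in Nutlin-3a. All 17 were called lower with siRFX7 in DMSO in the authors' deposited tables, and for all 17 the siRFX7 effect was larger in DMSO than in Nutlin-3a. The class was weakened for 12, strengthened for 2 and reversed for 3. With groups scaled to equal summed levels 1 gene of the list was called below 0.

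CHAC1 (chromosome 15 from 40952962 to 40956519, plus strand, GRCh38), a glutathione-degrading enzyme induced by ATF4, had the interaction farthest above 0, 2.49 (SE 0.18, adjusted p 1.02e-41). It went from 888 to 135 normalized counts in siControl and from 182 to 155 in siRFX7. The 2 Nutlin-3a levels and the siRFX7 DMSO level lay close together, with the siControl DMSO level alone far above. TRIB3, a pseudokinase that restrains ATF4, went from 4668 to 1255 normalized counts in siControl and from 1335 to 1107 in siRFX7, with 1.63 (SE 0.10, adjusted p 4.39e-52). SLC7A11, the cystine transporter, went from 3917 to 1077 normalized counts in siControl and from 1265 to 903 in siRFX7, with 1.38 (SE 0.15, adjusted p 1.08e-16). JDP2, an AP-1 family repressor, went from 812 to 200 normalized counts in siControl and from 348 to 214 in siRFX7, with 1.32 (SE 0.15, adjusted p 2.70e-16). Like CHAC1, these 3 were called lower with siRFX7 in DMSO and not called in Nutlin-3a by the authors' deposited tables. DDIT3, the factor CHOP, went from 725 to 199 normalized counts in siControl and from 292 to 276 in siRFX7, with 1.79 (SE 0.15, adjusted p 2.65e-30), but exons of MARS on the other strand cover 39.6% of its exon bases and the handling of strand is not given in the sources used here. ATF4 itself, named after its values were seen, went from 14166 to 5128 normalized counts in siControl and from 6895 to 4717 in siRFX7, with 0.92 (SE 0.11, adjusted p 4.74e-15).

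PCK2, SLC1A4 and FAM129A were among the 10 genes farthest above 0. PCK2, the mitochondrial form of phosphoenolpyruvate carboxykinase, went from 2762 to 344 normalized counts in siControl and from 784 to 293 in siRFX7, with 1.59 (SE 0.12, adjusted p 1.77e-38). SLC1A4 (chromosome 2 from 64988477 to 65023865, plus strand, GRCh38), a transporter of alanine, serine and cysteine, went from 650.1 to 40 normalized counts in siControl and from 316 to 79.4 in siRFX7, with 2.03 (SE 0.22, adjusted p 7.13e-17). FAM129A, a stress-induced gene, went from 976 to 107 normalized counts in siControl and from 326 to 115 in siRFX7, with 1.69 (SE 0.19, adjusted p 6.46e-16). PCK2 and FAM129A differed between siRNAs mainly in DMSO. SLC1A4 crossed, being lower with siRFX7 in DMSO and higher in Nutlin-3a.

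Serine, folate and asparagine pathway genes moved with them. Of 19, 9 were called above 0 and none below (47.4%, against 11.4% of all genes). All 9 were called lower with siRFX7 in DMSO in the authors' deposited tables. PSAT1 and PHGDH encode serine synthesis enzymes. PSAT1 went from 15692 to 5097 normalized counts in siControl and from 5979 to 4202 in siRFX7, with 1.11 (SE 0.059, adjusted p 2.80e-74). PHGDH went from 12103 to 2271 normalized counts in siControl and from 4392 to 1402 in siRFX7, with 0.77 (SE 0.13, adjusted p 5.07e-07). GPT2, an alanine transaminase, went from 3582 to 1241 normalized counts in siControl and from 1645 to 1166 in siRFX7, with 1.03 (SE 0.086, adjusted p 1.14e-30). MTHFD2, a mitochondrial folate enzyme, had 0.67 (SE 0.054, adjusted p 2.50e-32), with 33.2% of its exon bases shared with other genes. Unlike CHAC1, PSAT1 and PHGDH stayed lower with siRFX7 in Nutlin-3a too.

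Of 22 amino acid transporters, 9 were called above 0 and 1, the RFX7 target SLC43A2, below (45.5%, against 11.4% of all genes). Among the 9 is SLC7A11, which is also counted in the ATF4 list. SLC7A5, the large neutral amino acid transporter, went from 43907 to 18217 normalized counts in siControl and from 22725 to 18618 in siRFX7, with 0.98 (SE 0.080, adjusted p 6.14e-32). Its partner SLC3A2 went from 17078 to 7054 normalized counts in siControl and from 9662 to 7199 in siRFX7, with 0.85 (SE 0.10, adjusted p 2.37e-14). SLC1A5, a glutamine transporter, went from 14914 to 7421 normalized counts in siControl and from 10068 to 9439 in siRFX7, with 0.91 (SE 0.058, adjusted p 3.65e-53), and shares 23.8% of its exon bases with other genes. SLC6A9, a glycine transporter, had 1.18 (SE 0.22, adjusted p 4.62e-06), a call lost with 8 degrees of freedom.

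Cytosolic aminoacyl-tRNA synthetases, which load tRNAs with amino acids, had a higher share of calls than any other list. Of 20 genes, 12 were called above and 2 below 0 (70%, against 11.4% of all genes). Median Nutlin-3a effects in the authors' deposited tables were -0.46 in siControl and -0.09 in siRFX7, and median siRFX7 effects were -0.40 in DMSO and 0.01 in Nutlin-3a. AARS, the alanine enzyme, went from 13611 to 4295 normalized counts in siControl and from 7054 to 4173 in siRFX7, with 0.91 (SE 0.068, adjusted p 1.22e-37). CARS, the cysteine enzyme, went from 4194 to 2032 normalized counts in siControl and from 1807 to 1689 in siRFX7, with 0.95 (SE 0.073, adjusted p 4.69e-35). WARS, the tryptophan enzyme, went from 7558 to 4274 normalized counts in siControl and from 3870 to 4269 in siRFX7, with 0.96 (SE 0.11, adjusted p 1.26e-16). SARS, the serine enzyme, went from 9431 to 8945 normalized counts in siControl and from 5501 to 10299 in siRFX7, with 0.98 (SE 0.067, adjusted p 1.00e-44). SARS was the gene of this list classed as strengthened, with a rise in siRFX7 and none in siControl. QARS and VARS were called below 0, at -0.24 and -0.19, and neither call held with 8 degrees of freedom. Of their 17 mitochondrial counterparts 1 was called, HARS2, at -0.33 (SE 0.082, adjusted p 0.00213), a call lost with 8 degrees of freedom. The median interaction of the mitochondrial list was 0.00.

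The ATF4 element, searched as TGATGNAAT on both strands in the same windows, was in 0.404% of matched genes, in 1.78% of weakened falls, in 1.02% of all windows and in 0 of 22 ATF4 list genes with a window. A missing match says only that these letters are not in that window.

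Chaperones and other genes of the unfolded protein response in the endoplasmic reticulum (ER) included several reversals. Of 24 genes, 13 were called above 0 and none below (54.2%, against 11.4% of all genes). Median Nutlin-3a effects in the authors' deposited tables were -0.04 in siControl and 0.36 in siRFX7. The class was strengthened for 6, reversed for 4 and weakened for 3. HSPA5, the chief ER chaperone BiP, went from 40082 to 37309.6 normalized counts in siControl and from 33271 to 48603 in siRFX7, with 0.65 (SE 0.059, adjusted p 1.05e-25). HERPUD1, a component of ER-associated degradation, went from 1981 to 1414 normalized counts in siControl and from 1266 to 1853 in siRFX7, with 1.04 (SE 0.077, adjusted p 1.77e-38). MANF, a secreted ER stress protein, went from 2895 to 2296 normalized counts in siControl and from 2614 to 3352 in siRFX7, with 0.69 (SE 0.088, adjusted p 6.36e-13). XBP1, a transcription factor of the same response, went from 2738 to 2252 normalized counts in siControl and from 1928 to 2300.4 in siRFX7, with 0.54 (SE 0.10, adjusted p 1.06e-05). Each of these 4 fell in siControl and rose in siRFX7. In contrast to the ATF4 list, the larger siRFX7 effect lay in DMSO for 6 of the 13 and in Nutlin-3a for 7. The ER and ATF4 lists are not separate sets, since HERPUD1 is counted in both. The calls of XBP1, ATF6 and DNAJB9 among the named genes did not hold with 8 degrees of freedom.

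Of 15 cytosolic heat shock chaperones, 4 were called above 0 (26.7%, against 11.4% of all genes): HSPA8, HSPA1A, HSPA1B and DNAJB1. HSPA8, the constitutive HSP70, went from 89240.5 to 52801 normalized counts in siControl and from 86794 to 69123 in siRFX7, with 0.43 (SE 0.064, adjusted p 2.84e-09). HSPA1A and HSPA1B are near-identical copies, so their separate values are uncertain. Of 30 proteasome subunits, 5 were called above 0, from 0.20 for PSMD8 to 0.32 for PSMD12. This share of 16.7% is near the 11.4% of all genes, and none of these calls held with 8 degrees of freedom.

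**Figure D4:**
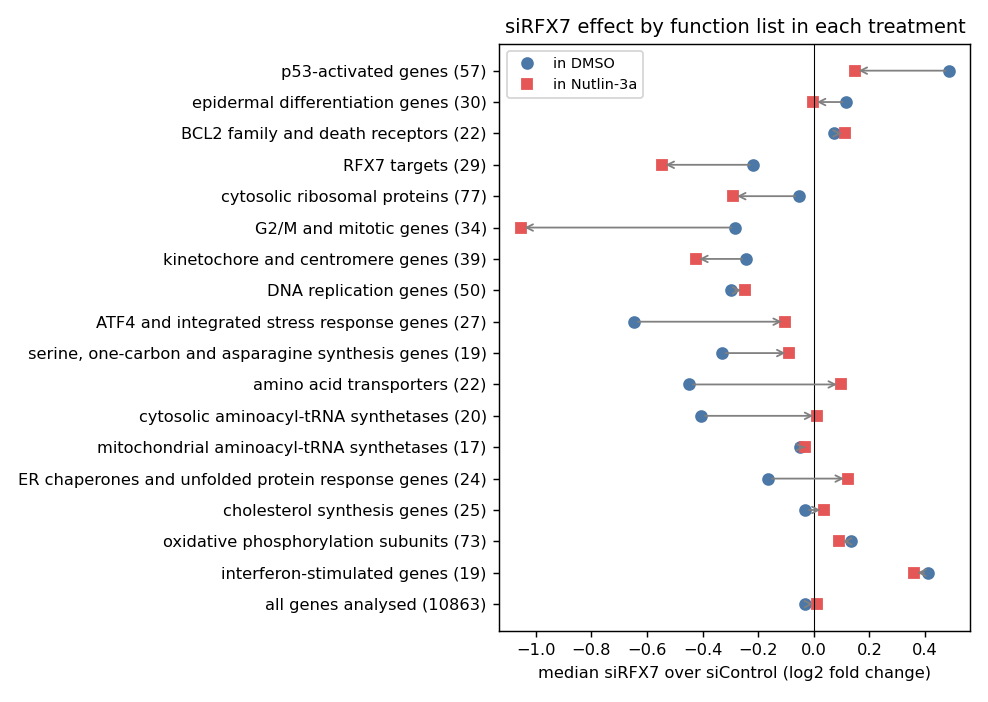
Median siRFX7 effect (x axis, log2 fold change of siRFX7 over siControl in the authors' deposited tables) in DMSO (circles) and in Nutlin-3a (squares) for 17 function lists and for all 10863 genes, with the number of genes in brackets. Arrows run from DMSO to Nutlin-3a, so their length shows the shift. The p53-activated list moves from 0.49 to 0.15, the ATF4 list from -0.65 to -0.10, and the G2/M list from -0.28 to -1.05.

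Mitotic genes fell further with Nutlin-3a in siRFX7, and the siRFX7 effect was larger in Nutlin-3a for all those called. Of 34 G2/M and mitotic genes, 22 were called below 0 and none above (against 4.92% and 6.47% of all genes), all 22 strengthened falls. The median interaction was -0.78. Median Nutlin-3a effects in the authors' deposited tables were -4.32 in siControl and -5.21 in siRFX7, and median siRFX7 effects were -0.28 in DMSO and -1.05 in Nutlin-3a. All 22 were called lower with siRFX7 in Nutlin-3a by the authors' deposited tables, and 16 also in DMSO.

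NEK2, a centrosome kinase, went from 1899 to 46.7 normalized counts in siControl and from 1558 to 10.4 in siRFX7, with -1.88 (SE 0.32, adjusted p 4.66e-07). DLGAP5 (chromosome 14 from 55148112 to 55191678, minus strand, GRCh38), a spindle assembly factor, went from 3612 to 115 normalized counts in siControl and from 3340 to 29.3 in siRFX7, with -1.87 (SE 0.19, adjusted p 4.04e-19). ASPM, a spindle pole protein, went from 2283 to 84.1 normalized counts in siControl and from 1701 to 18.5 in siRFX7, with -1.76 (SE 0.28, adjusted p 3.23e-08). The authors' deposited tables called all 3 lower with siRFX7 under Nutlin-3a, NEK2 and ASPM also in DMSO. CCNB2, a mitotic cyclin, went from 2559 to 154 normalized counts in siControl and from 2234 to 45.8 in siRFX7, with -1.55 (SE 0.17, adjusted p 1.03e-17). AURKB, the chromosomal passenger kinase, went from 2744 to 98.9 normalized counts in siControl and from 2047 to 30 in siRFX7, with -1.30 (SE 0.22, adjusted p 2.56e-07). CDC25C, a phosphatase that activates CDK1, went from 609 to 17.6 normalized counts in siControl and from 548 to 6.06 in siRFX7, with -1.39 (SE 0.43, adjusted p 0.023), a call lost with 8 degrees of freedom. Nutlin-3a levels of these genes in siRFX7 were low, down to 6.06 for CDC25C, so their interactions rest on few counts.

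Some kinetochore genes and kinesins also fell further in siRFX7. Of 39 kinetochore and centromere genes, 12 were called below 0 and 1 above (33.3%, against 11.4% of all genes). SPC25, a subunit of the NDC80 complex, went from 1264 to 28.1 normalized counts in siControl and from 1027 to 6.4 in siRFX7, with -1.84 (SE 0.39, adjusted p 1.28e-04). CENPF went from 7562 to 402 normalized counts in siControl and from 5461 to 141 in siRFX7, with -1.04 (SE 0.16, adjusted p 4.52e-09). CENPA, the centromeric histone, had -1.63 (SE 0.41, adjusted p 0.00247) and SKA1, a kinetochore coupler, had -1.49 (SE 0.41, adjusted p 0.00763). Nutlin-3a levels in siRFX7 were low for SPC25 (6.4 normalized counts), CENPA (5.72) and SKA1 (5.72), so their interactions rest on few counts. The calls of SPC25, CENPA, SKA1 and NUF2 did not hold with 8 degrees of freedom, under which 3 of the list were called below 0 and none above. CENPN was called above 0, with 0.42 (SE 0.12, adjusted p 0.0117), a call also lost then, and shares 22.8% of its exon bases with other genes.

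Of 14 mitotic kinesins, 5 were called below 0 and 1 above (42.9%, against 11.4% of all genes). KIF18B went from 2138 to 61.3 normalized counts in siControl and from 1433 to 12.8 in siRFX7, with -1.68 (SE 0.29, adjusted p 7.53e-07). KIF2C, a microtubule depolymerase, went from 4171 to 103 normalized counts in siControl and from 2851 to 25.6 in siRFX7, with -1.45 (SE 0.21, adjusted p 8.04e-10). KIF20A, a cytokinesis motor, went against them, from 3415 to 213 normalized counts in siControl and from 2789 to 374 in siRFX7, with 1.10 (SE 0.16, adjusted p 4.46e-10). KIF20A was therefore lower with siRFX7 in DMSO and higher in Nutlin-3a. The Nutlin-3a levels of KIF18B and KIF2C in siRFX7 were low, so their interactions rest on few counts.

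DNA replication genes went both ways. Of 50, 6 were called above 0 and 5 below (22%, against 11.4% of all genes), with a median interaction of 0.09. Among those below, MCM10, a helicase activator, went from 2977 to 69.1 normalized counts in siControl and from 1855 to 14.5 in siRFX7, with -1.57 (SE 0.26, adjusted p 1.51e-07). The interaction of MCM10 thus rests on few counts in siRFX7 under Nutlin-3a. RRM2, the regulated subunit of ribonucleotide reductase, went from 8707 to 266 normalized counts in siControl and from 5887 to 66.6 in siRFX7, with -1.43 (SE 0.15, adjusted p 4.04e-19), and shares 20.2% of its exon bases with other genes. MCM7, a helicase subunit, had -0.68 (SE 0.078, adjusted p 1.07e-15). Among those above, GMNN, the licensing inhibitor geminin, went from 1860.4 to 564 normalized counts in siControl and from 1505 to 705 in siRFX7, with 0.63 (SE 0.11, adjusted p 1.14e-06), and PCNA, the sliding clamp, went from 11039.5 to 8731 normalized counts in siControl and from 11574 to 12008 in siRFX7, with 0.39 (SE 0.093, adjusted p 0.001). MCM3, of the same helicase as MCM7, had 0.31 (SE 0.071, adjusted p 6.74e-04). The 5 genes below 0 were all lower with siRFX7 in both treatments in the authors' deposited tables. The calls of PCNA and MCM3 did not hold with 8 degrees of freedom.

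Of 33 homologous recombination and Fanconi anaemia genes, 7 were called below 0 and 3 above (30.3%, against 11.4% of all genes). ESCO2, a cohesin acetyltransferase, went from 1759.8 to 41.3 normalized counts in siControl and from 1302 to 9.09 in siRFX7, with -1.75 (SE 0.33, adjusted p 6.53e-06). BLM, a helicase, went from 1292 to 61.7 normalized counts in siControl and from 769 to 16.5 in siRFX7, with -1.15 (SE 0.25, adjusted p 2.95e-04). FANCD2, a crosslink repair protein, had -0.67 (SE 0.14, adjusted p 9.18e-05). RAD51C, a recombinase paralog, went from 2147 to 1009 normalized counts in siControl and from 1966 to 1275 in siRFX7, with 0.46 (SE 0.076, adjusted p 1.50e-07), in the other direction. The calls of ESCO2, BLM and FANCD2 were lost with 8 degrees of freedom. ZNF367, a zinc finger gene among the 10 farthest below 0, went from 1321 to 40 normalized counts in siControl and from 1102 to 8.08 in siRFX7, with -2.04 (SE 0.34, adjusted p 1.57e-07). Nutlin-3a levels of ESCO2, BLM and ZNF367 in siRFX7 were low, so their interactions rest on few counts.

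The cell cycle homology region, searched as TTTGAA or TTCGAA on both strands in the same RefSeq windows, was in 40.9% of strengthened falls (52 of 127) and in 59.3% of G2/M and mitotic genes (16 of 27). It was in 10% of genes that were not called, in 10.5% of all matched genes and in 16.6% of all 27305 windows. In the G2/M and mitotic genes that were called the share was 58.8% (10 of 17). Within this list the motif was thus about as frequent in called genes as in all 27. Falls that were not called were not counted apart. DLGAP5, SPC25 and ASPM are shown because they are strongly strengthened falls from different mitotic structures and hold the motif (capitals), DLGAP5 3 times, SPC25 2 times and ASPM 1 time. Their windows are chr14:55191536-55191835 for DLGAP5, chr2:168890381-168890680 for SPC25 and chr1:197146620-197146919 for ASPM, all on the minus strand (GRCh38.p14). A match is a description of letters and not a binding site shown here.
DLGAP5: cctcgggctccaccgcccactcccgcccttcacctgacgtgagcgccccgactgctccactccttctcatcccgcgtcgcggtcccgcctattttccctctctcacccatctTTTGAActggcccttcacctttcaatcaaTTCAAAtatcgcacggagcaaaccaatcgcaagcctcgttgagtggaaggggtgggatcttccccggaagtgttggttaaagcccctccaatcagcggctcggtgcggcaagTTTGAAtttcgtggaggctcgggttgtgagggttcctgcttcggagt
SPC25: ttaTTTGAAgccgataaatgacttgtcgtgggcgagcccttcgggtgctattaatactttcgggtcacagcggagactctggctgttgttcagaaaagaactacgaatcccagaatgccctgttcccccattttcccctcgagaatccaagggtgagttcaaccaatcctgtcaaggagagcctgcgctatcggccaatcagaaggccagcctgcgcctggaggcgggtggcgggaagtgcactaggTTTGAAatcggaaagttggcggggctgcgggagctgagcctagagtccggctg
ASPM: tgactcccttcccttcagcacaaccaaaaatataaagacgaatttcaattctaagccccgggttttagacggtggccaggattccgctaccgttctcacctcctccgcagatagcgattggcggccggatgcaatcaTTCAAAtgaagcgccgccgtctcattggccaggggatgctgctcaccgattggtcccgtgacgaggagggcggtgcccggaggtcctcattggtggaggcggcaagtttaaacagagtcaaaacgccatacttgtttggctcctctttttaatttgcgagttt

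Cell cycle regulators were called in both directions. Of 21 CDK inhibitors, pocket proteins and E2Fs, 4 were called above 0 and 2 below (28.6%, against 11.4% of all genes). RB1, the retinoblastoma protein, went from 2205 to 2572 normalized counts in siControl and from 2182 to 3345 in siRFX7, with 0.39 (SE 0.12, adjusted p 0.0272), a call lost with 8 degrees of freedom and on scaling to equal summed levels. LIN52, a DREAM subunit, went from 624 to 251 normalized counts in siControl and from 464 to 258 in siRFX7, with 0.46 (SE 0.14, adjusted p 0.016). Of 9 G1 cyclins and kinases, 1 was called above 0 and 3 below (44.4%). CDK2 was above 0, with 0.38 (SE 0.083, adjusted p 2.94e-04). CCND1 and CCNG2, given above with the RFX7 targets, and CCNG1, a p53 target, were below, at -0.78, -1.05 and -0.47. The calls of LIN52 and CDK2 were lost with 8 degrees of freedom.

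Most tubulin genes that were called fell less in siRFX7. Of 26 tubulin, actin and motility genes, 8 were called above 0 and 2 below (38.5%, against 11.4% of all genes). TUBB4B went from 21004 to 6564 normalized counts in siControl and from 18335 to 10016 in siRFX7, with 0.81 (SE 0.055, adjusted p 6.33e-45). TUBA4A went from 1435 to 845 normalized counts in siControl and from 1978 to 1959 in siRFX7, with 0.75 (SE 0.14, adjusted p 1.23e-05). TUBB2A went from 756 to 465 normalized counts in siControl and from 880.2 to 904 in siRFX7, with 0.74 (SE 0.12, adjusted p 1.57e-07). In all 3 the Nutlin-3a level was higher with siRFX7. The call of TUBA4A was lost with 8 degrees of freedom. TUBA1A went the other way, from 1185 to 1185 normalized counts in siControl and from 1517 to 698 in siRFX7, with -1.12 (SE 0.16, adjusted p 4.15e-10), and tubulin genes are similar enough that reads could be split between copies. ACTA2, smooth muscle actin, shares 30.1% of its exon bases with other genes and went from 96.1 to 933 normalized counts in siControl and from 383 to 1147 in siRFX7, with -1.70 (SE 0.13, adjusted p 6.80e-36).

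Few cytosolic ribosomal protein genes were called. Of 77, 5 were called below 0 and none above, a share of 6.49% against 11.4% of all genes. The median interaction was -0.24, with a range from -0.54 to 0.03. The authors' deposited tables called 47 of the 77 raised by Nutlin-3a under siControl and 12 under siRFX7. Over all 10863 genes these numbers were 3796 and 3946. The same tables called 51 of the 77 lower with siRFX7 in Nutlin-3a, against 2081 of all genes. A call under 1 siRNA and not under the other is not itself a difference in response, which was called for 5. RPL3 went from 37393 to 57708 normalized counts in siControl and from 27674 to 31986 in siRFX7, with -0.42 (SE 0.099, adjusted p 0.00104). RPL13A went from 14119.5 to 25687 normalized counts in siControl and from 11078 to 13851 in siRFX7, with -0.54 (SE 0.14, adjusted p 0.00232). Ribosomal proteins have many processed pseudogenes, so their counts are uncertain, and none of the 5 was called with 8 degrees of freedom. Scaled to equal summed levels, 11 were called below 0. None of 34 ribosome biogenesis genes was called.

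**Figure D5:**
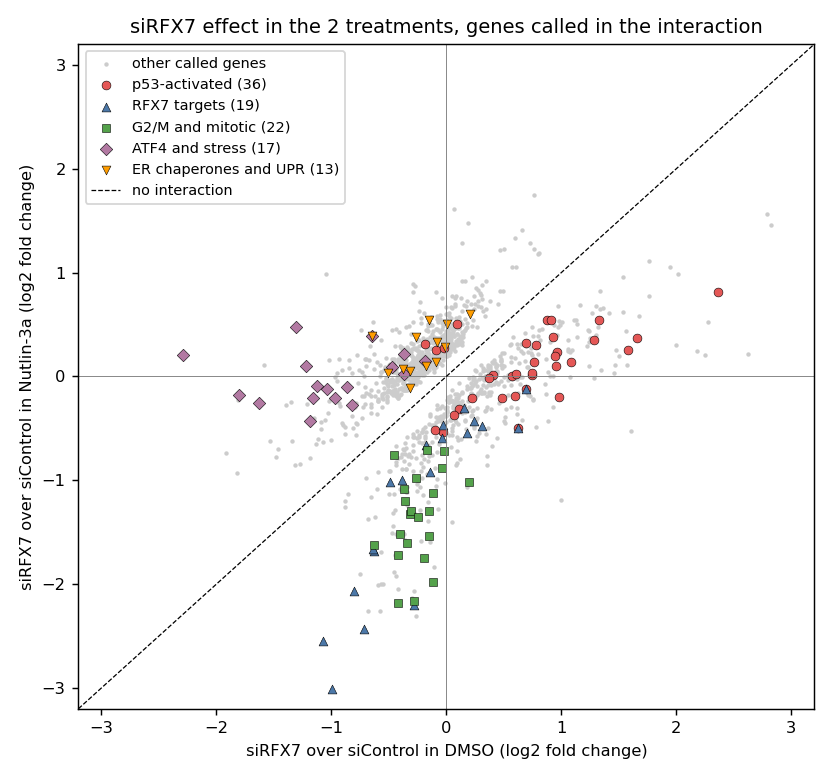
Each point is a gene called in the interaction, with the siRFX7 effect in DMSO on the x axis and in Nutlin-3a on the y axis (log2 fold change of siRFX7 over siControl in the authors' deposited tables). Genes on the dashed line would have no interaction. The 17 ATF4 and stress genes spread to the left, the p53-activated genes mostly to the right, and the 19 RFX7 targets and 22 mitotic genes downward.

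The 50 reversed responses were 37 genes that fell in siControl and rose in siRFX7 and 13 that rose in siControl and fell in siRFX7, by the authors' deposited tables. The median interaction of the 50, signs kept, was 0.46. The strongest of the 13 were RFX5 and PNRC1, given above, SESN3, MAMDC2 and NR4A2. SESN3, a sestrin under FOXO control, went from 157 to 236 normalized counts in siControl and from 146 to 66 in siRFX7, with -1.73 (SE 0.20, adjusted p 9.48e-15). NR4A2, an orphan nuclear receptor, went from 236 to 393 normalized counts in siControl and from 183 to 137 in siRFX7, with -1.15 (SE 0.17, adjusted p 1.62e-09). MAMDC2 went from 67.8 to 102 normalized counts in siControl and from 214 to 132 in siRFX7, with -1.29 (SE 0.22, adjusted p 4.92e-07). SESN3 and NR4A2 differed between siRNAs mainly in Nutlin-3a, and MAMDC2 in DMSO. The strongest of the 37 were SYNE3, CSTA, HERPUD1, SPRY4 and FGF19. SYNE3, a nuclear envelope protein, went from 205 to 151 normalized counts in siControl and from 123 to 206 in siRFX7, with 1.19 (SE 0.20, adjusted p 3.30e-07). CSTA went from 401 to 243 normalized counts in siControl and from 106 to 145 in siRFX7, with 1.17 (SE 0.18, adjusted p 3.66e-09). SPRY4, a feedback inhibitor of receptor tyrosine kinase signalling, went from 2494 to 2095 normalized counts in siControl and from 1227 to 1783 in siRFX7, with 0.79 (SE 0.085, adjusted p 5.05e-18). FGF19, a fibroblast growth factor, went from 1622 to 1298 normalized counts in siControl and from 974 to 1337 in siRFX7, with 0.78 (SE 0.099, adjusted p 6.98e-13). SYNE3, CSTA, HERPUD1, SPRY4 and FGF19 were all lower with siRFX7 in DMSO. In Nutlin-3a SYNE3 and HERPUD1 were higher with siRFX7, and FGF19 was close between the siRNAs. CSTA and SPRY4 stayed lower with siRFX7, by a narrower gap.

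Strengthened rises included LAMP3, SEPT4 and WNT7B. LAMP3, a lysosomal membrane gene, went from 119 to 374 normalized counts in siControl and from 124 to 1144 in siRFX7, with 1.55 (SE 0.20, adjusted p 5.63e-12). SEPT4, a septin gene, went from 90.4 to 115 normalized counts in siControl and from 103 to 320 in siRFX7, with 1.29 (SE 0.21, adjusted p 1.57e-07). WNT7B, a WNT ligand, went from 418 to 418 normalized counts in siControl and from 459 to 1021 in siRFX7, with 1.15 (SE 0.12, adjusted p 3.88e-19). All 3 were called higher with siRFX7 in Nutlin-3a and not called in DMSO by the authors' deposited tables. Among WNT ligands and feedback genes, 3 of 25 were called above 0 and 3 below (24%, against 11.4% of all genes). Among those below was DKK1, a secreted WNT inhibitor. DKK1 went from 2343 to 7276 normalized counts in siControl and from 2771 to 5217 in siRFX7, with -0.72 (SE 0.095, adjusted p 5.14e-12). LIF, a cytokine and p53 target, had 0.49 (SE 0.12, adjusted p 0.00117), and IL18, another cytokine, went from 641 to 1588 normalized counts in siControl and from 1364 to 1890 in siRFX7, with -0.84 (SE 0.14, adjusted p 3.21e-07). The call of LIF was lost with 8 degrees of freedom.

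Smaller groups had calls of modest size. Of 24 AP-1 and immediate early genes, 4 were called above 0 and 3 below (29.2%, against 11.4% of all genes). EGR1 went from 943 to 463 normalized counts in siControl and from 444 to 326 in siRFX7, with 0.58 (SE 0.13, adjusted p 6.45e-04), and DUSP6, a phosphatase that limits ERK, had -0.38 (SE 0.071, adjusted p 6.82e-06), with 40.5% of its exon bases shared with other genes. The calls of EGR1 and DUSP6 were lost with 8 degrees of freedom. Of 13 MHC class I presentation genes, 3 were called below 0 (23.1%). HLA-E went from 2738 to 3838 normalized counts in siControl and from 2181 to 2137 in siRFX7, with -0.52 (SE 0.077, adjusted p 3.49e-09). VEGFA, an angiogenic factor that also belongs to the ATF4 and hypoxia lists, had 0.76 (SE 0.084, adjusted p 7.13e-17). GCLM, of glutathione synthesis, was reversed, with 0.46 (SE 0.075, adjusted p 1.22e-07). TGFBR2 and TGFBR1, the receptors of TGF-beta, were called in opposite directions, at -0.35 (SE 0.11, adjusted p 0.0224) and 0.30 (SE 0.088, adjusted p 0.016), and neither call held with 8 degrees of freedom.

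Several functions had shares of calls below that of all genes. Of 73 oxidative phosphorylation subunits, 1 was called (ATP5MC1, -0.28), of 25 cholesterol synthesis genes 1 (TM7SF2, -0.39), of 19 fatty acid synthesis genes 1 (FADS1, -0.45) and of 19 interferon-stimulated genes 1 (PARP9, -0.48). PARP9 was higher with siRFX7 in both treatments, going from 227 to 330.1 normalized counts in siControl and from 508 to 531 in siRFX7. None of these 4 calls held with 8 degrees of freedom. None of 14 Notch pathway genes was called. Among 35 nuclear splicing factors 3 were called, and among 29 autophagy and lysosome genes 3, of which TP53INP1 and DRAM1 are p53 targets. A share below 11.4% does not show that responses were equal, only that differences of this size were not detected. In all, the lists covered 270 of the 1238 called genes, and 968 were in none of them.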

How the data were processed

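PolyA RNA-seq of 12 libraries was available as 4 DESeq2 result tables deposited by the authors, each for 1 pair of groups. The submitters' processing notes list hg38, bcl2fastq 2.20.0.422, Trimmomatic 0.39, cutadapt 2.10, FastQC 0.11.9, SAMtools 1.10, Picard, featureCounts 1.6.5 and DESeq2 1.20.0. The aligner, the annotation and how strand and multi-mapping reads were counted are not given in the sources used here. Mean normalized counts are a signal, per the file headers. The deposited log2 fold changes and standard errors are on the log2 scale. The test statistic is a score, per the file headers, and p-values and adjusted p-values are the authors' own.

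Fold changes of the siRFX7 tables were taken as siRFX7 relative to siControl, because the 4 fold changes of each gene then closed to within 1.29e-14 (median error 0.374 read the other way). Interactions were given a z test, two-sided, with the standard errors of both Nutlin-3a tables combined as the square root of the sum of their squares, and adjusted by Benjamini-Hochberg over 23195 genes. The test takes the standard errors as known. It was checked on data simulated with these same standard errors, so the check cannot show whether they are right. Depth per library is unknown. Classes, arms and lists are descriptions without a test, and a gene can be counted in several lists. Genes and lists were chosen with earlier results of these data known. Named genes are RFX7, MDM2 and CDKN1A, the 10 farthest above and below 0, the 5 strongest reversed genes in each direction, and up to 6 called genes per list and direction. Others are said to be named after their values were seen. Positions and exon overlaps come from GENCODE 29, and overlaps above 20% are given for genes that turn on them. Alternatives varied the threshold, a minimum interaction of 0.58, the reference distribution, standard errors 25% larger, scaling, centring and the minimum mean count. Python 3.11.15, NumPy 2.4.6, SciPy 1.17.1 and pandas 2.3.3 were used.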

Additional observations from a re-analysis of the deposited data

Results flagged for a closer look

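The Nutlin-3a effect differed between the siRNAs by the z test in 1238 protein-coding genes. Genes named for size or as checks are listed here by their interaction, the Nutlin-3a effect in siRFX7 minus that in siControl on the log2 scale. Interactions above 0 were 2.49 for CHAC1, 2.03 for SLC1A4, 1.79 for DDIT3, 1.69 for FAM129A, 1.63 for TRIB3, 1.59 for PCK2, 1.55 for LAMP3, 1.38 for SLC7A11, 1.32 for JDP2, 1.29 for SEPT4, 1.19 for SYNE3, 1.17 for CSTA, 1.04 for HERPUD1, 0.79 for SPRY4 and 0.78 for FGF19. Interactions below 0 were -2.40 for INPP5D, -2.18 for BEST1, -2.14 for KRTAP2-3, -2.05 for PTCHD4, -2.04 for ZNF367, -2.01 for MXD4, -1.94 for FAM198B, -1.92 for RFX5, -1.88 for NEK2, -1.87 for DLGAP5, -1.73 for SESN3, -1.71 for PNRC1, -1.29 for MAMDC2, -1.15 for NR4A2, -0.93 for CDKN1A and -0.69 for MDM2. The levels behind each value are given in the report. The values of BEST1 rest on a standard error of 0.66, and its call was lost with 8 degrees of freedom.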

How the results depend on the processing

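Of 1238 called genes (703 above, 535 below 0), 772 (415 above) were called at an adjusted p below 0.01, 388 (148 and 240) with an absolute interaction of at least 0.58, 257 (123 and 134) with 8 degrees of freedom, and 579 (301 and 278) with standard errors 25% larger. At the stricter threshold 491 were weakened, 253 strengthened and 28 reversed, and at 0.58 the numbers were 235, 130 and 23. The stricter threshold for every call gave 243 genes with an siRFX7 effect in Nutlin-3a only, 184 in both with the same sign and 56 with opposite signs. With 8 degrees of freedom 12 RFX7 targets were below 0, p53-activated genes numbered 0 above and 15 below, kinetochore genes 0 above and 3 below, and serine and folate genes, amino acid transporters and ER chaperones 5 each above. Then 0 aminoacyl-tRNA synthetases and 0 ribosomal proteins were below, and epidermal genes numbered 1 above and 1 below. Scaling to equal summed levels left 3 p53-activated genes above 0, 1 ATF4 gene below and 11 ribosomal proteins below. Of 209 named genes, 8 lost their call on scaling (APAF1, BCL2, FANCE, PSMD8, RB1, RFC2, SF3B3 and TNFAIP8), 64 with standard errors 25% larger and 112 with 8 degrees of freedom, and 0 reversed in these 3 settings. No paired analysis was possible because the tables hold group statistics, and for that reason replicates could not be left out in turn.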
